A study of Mus musculus with 6 samples.

Results

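The 10 genes described here code for extracellular metalloproteases and their inhibitors: the inhibitors Timp1, Timp2 and Timp3, the ADAMTS proteases Adamts1, Adamts5 and Adamts15, and the matrix metalloproteases Mmp2, Mmp3, Mmp9 and Mmp14. They were found by their symbol in the scanner files and are 10 of the 29590 genes on the array, with 13 probes on 22 spots. The set was chosen by measured values, namely the fall of Timp3 and Adamts15 in wild-type cocultures. Values of that contrast are therefore a description, and nothing is read from them.

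The arrays, 6 in all and 1 per group, were single-colour Agilent arrays of RNA from mast cells grown out of mouse bone marrow, each pooled from 3 samples. Pla2g3+/+ mast cells and mast cells labelled Pla2g3-/- were grown in interleukin-3 (10 ng/ml), either without fibroblasts or, for 4 days, on wild-type Swiss 3T3 fibroblasts, a line from mouse embryos, in medium with stem cell factor (100 ng/ml). Wild-type mast cells were kept in the same way on Lpar1+/+ or Lpar1-/- Swiss 3T3 cells. Pla2g3 codes for a secreted phospholipase A2 and Lpar1 for a receptor of lysophosphatidic acid, and the design asks how both relate to the maturation of mast cells on fibroblasts. The Lpar1-/- line came from CRISPR editing and single-cell cloning, so its values belong to a cloned line as well as to the genotype. After coculture, mast cells were taken as nonadherent cells after trypsin and reseeding, or with beads against CD117 (Kit). Which route gave the arrayed RNA, whether stem cell factor was also added without fibroblasts, and the age of the mice are not stated in the labels.

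Every level below is the log2 signal of a probe minus the 75th percentile of its array, so 0 is a bright probe and each unit is a doubling. Levels of different genes come from different probes and are not compared. No group has a replicate, so no p-value is given, and precision is limited by the number of arrays. Both arrays of wild-type mast cells on wild-type fibroblasts, which lay on the same slide, gave a yardstick: over 21930 genes their differences had an SD of 0.26, and 95% lay within 0.54. A difference of at least 2-fold (1 log2 unit) was counted as higher or lower. Slide 1 held the arrays without fibroblasts and slide 2 the cocultures, so slide, coculture and stem cell factor cannot be told apart, whereas genotype comparisons lay within a slide.

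The targeted gene Pla2g3 went against its label: without fibroblasts its level was -6.31 under the Pla2g3+/+ label and 0.51 under the Pla2g3-/- label, and in coculture -7.31 and -1.84. Which part of the allele was deleted is not stated, so the probe may lie outside it and then checks nothing. Directions drawn from this genotype rest on the label. With wild-type mast cells Pla2g3 read -6.58 on Lpar1+/+ and -4.85 on Lpar1-/- cells. Lpar1, which was edited in the fibroblasts, read -2.84 and -2.85 on the arrays without them, -4.34 and -3.58 in the Pla2g3 cocultures, and -4.14 on Lpar1+/+ and -3.89 on Lpar1-/- cells, so its probe does not check that label. All 12 mast cell markers, among them Kit (6.49 to 6.97), were well above background on every array. Fibroblast markers were not absent from the cocultures: their summed signal was 0.248 and 0.185 times the 75th percentile without fibroblasts and 15.3 to 36.8 times in coculture, where 16 or 17 of 18 were well above background, against 8 of 18 on each array without fibroblasts.

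As background, tissue inhibitors of metalloproteases (TIMPs) block the active site of matrix metalloproteases, and TIMP3, which is held in the matrix, also blocks ADAM and ADAMTS enzymes. ADAMTS1, ADAMTS5 and ADAMTS15 cut proteoglycans such as versican and aggrecan. MMP2 and MMP9 are gelatinases, MMP3 is a stromelysin that also activates other proenzymes, and MMP14 is a membrane-bound collagenase that activates proMMP2 together with TIMP2. Mast cells in connective tissue lie in such a matrix, and their chymase and tryptase are known to activate metalloprotease precursors.

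The probes of Timp1, Timp2, Timp3, Adamts5 and Adamts15 are shown first, and those of the other members are left out. Each level below is the signal of a probe and of no other part of the transcript. Each probe has 60 bases, of which the first 30 are printed 5′ to 3′ in lower case, with the probe's place on mm9 and the strand the files give. Whether a probe lies in an exon of the coding part or in an untranslated region was not determined here.
Timp1, chrX:20451802-20451861, plus strand: tacttttcctccatctttctttctcttaga
Timp3, chr10:85811696-85811755, plus strand: atagtgacttttggggatagatctgtctgg
Timp2, chr11:118163146-118163205, minus strand: ccgtgagcgttcttgtgccgtgttgatgcc
Timp2 again, chr11:118171964-118178741, minus strand: taattgcaggaaaggcagaaggagatggca
Adamts5, chr16:85858173-85858232, minus strand: atgttgctctctagtccttgttaggttgga
Adamts5 again, chr16:85858402-85858461, minus strand: ggacacattgcaatacaggtccattcatta
Adamts5 again, chr16:85899450-85899509, minus strand: ccacgaccctcaagaacttttgcaaatggc
Adamts15, chr9:30707033-30707092, minus strand: gagtatcttcattgggttatggaccagtaa
The longer Timp2 interval covers 6778 bases for a 60-base probe, so this probe joins separate stretches of the genome. The outer Adamts5 probes lie 41218 bases apart and read separate parts of that gene.

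Timp1, a secreted inhibitor of most matrix metalloproteases, had levels without fibroblasts of -7.08 in Pla2g3+/+ cells and -7.09 under the Pla2g3-/- label, -0.30 and 0.24 in the same order in coculture, -0.19 with Lpar1+/+ fibroblasts and 2.51 with Lpar1-/- fibroblasts. Both arrays without fibroblasts were low and equal within the yardstick, all 4 cocultures were far above them, and the coculture on Lpar1-/- fibroblasts was above the others. Coculture went with a 110-fold higher signal in Pla2g3+/+ cells and one of 161-fold under the Pla2g3-/- label, where it ranked 7 by size of increase among 20236 genes measured on both arrays. The signal was 6.49-fold higher on Lpar1-/- than on Lpar1+/+ fibroblasts (log2 difference 2.70, scanner error 0.20). With normexp, another background correction of the raw intensities, the coculture differences were 4.22 and 4.67 on the log2 scale in place of 6.78 and 7.33, still past 2-fold.

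Timp2, which besides inhibiting proteases brings proMMP2 to MMP14, read -4.18 and -5.43 without fibroblasts, 0.51 and 0.13 in coculture, 0.44 with Lpar1+/+ and 0.81 with Lpar1-/- fibroblasts. The cocultures lay between 0.13 and 0.81, well above the arrays without fibroblasts, by 25.8-fold in Pla2g3+/+ cells and 47.3-fold under the Pla2g3-/- label. The probe that spans 6778 bases read -5.48, -6.02, -1.50, -1.79, -1.55 and -0.43 on the arrays in the same order. The probes gave the same direction in both coculture comparisons but not the same call elsewhere: on Lpar1-/- against Lpar1+/+ fibroblasts the log2 difference was 0.38 by one and 1.12 by the other, and between the arrays without fibroblasts it was -1.26 and -0.54. With normexp that last difference fell within 2-fold (-0.51), and with the mean of probes too (-0.90). The coculture differences, 4.69 and 5.56 on the log2 scale, were 3.79 and 3.94 with normexp, and 5.95 and 4.31 against the other array without fibroblasts. The mean of probes gave 4.90 under the label.

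Timp3, the matrix-bound inhibitor that also acts on ADAMTS enzymes, ran the other way. Its level was 1.72 and 1.54 without fibroblasts, -3.88 and -3.35 in coculture, -4.06 with Lpar1+/+ and -1.00 with Lpar1-/- fibroblasts. Both arrays without fibroblasts were the highest, the coculture on Lpar1-/- fibroblasts came next, and the other 3 cocultures were lowest. The signal was 48.2-fold lower in the Pla2g3+/+ coculture, the contrast that chose this gene (log2 difference -5.59, and -4.95 with normexp). Under the Pla2g3-/- label, on arrays the choice did not use, it was 29.8-fold lower (log2 difference -4.90, scanner error 0.20), where it ranked 36 by size of decrease among 20236 genes. On Lpar1-/- fibroblasts it was 8.35-fold higher than on Lpar1+/+ fibroblasts. The Lpar1+/+ array is a wild-type coculture, in which a low level was the reason for the choice, so this value is not independent of it.

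Adamts1, a versican- and aggrecan-cutting protease, read -4.42 and -4.91 without fibroblasts, -0.22 and -1.25 in coculture, -0.07 with Lpar1+/+ and -1.97 with Lpar1-/- fibroblasts. It was higher in every coculture than on either array without fibroblasts, and highest on both wild-type cocultures. The signal was 18.5-fold higher in Pla2g3+/+ coculture and 12.6-fold higher under the Pla2g3-/- label (log2 differences 4.21 and 3.65, and 3.44 and 2.60 with normexp). It was 3.74-fold lower on Lpar1-/- than on Lpar1+/+ fibroblasts, and 2.05-fold lower under the Pla2g3-/- label in coculture, a value at the edge of the 2-fold rule that fell within it (log2 difference -0.96) when arrays were scaled on probes detected on all of them.

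Adamts5, a main aggrecanase of cartilage, had levels of -4.73 and -4.77 without fibroblasts, -4.07 in the Pla2g3+/+ coculture, -0.66 in the coculture labelled Pla2g3-/-, -4.18 with Lpar1+/+ and -1.86 with Lpar1-/- fibroblasts. Both wild-type cocultures stayed near the arrays without fibroblasts, and the cocultures with a -/- label on either side were apart and higher. The signal was 10.6-fold higher under the Pla2g3-/- label in coculture (log2 difference 3.41), where it ranked 54 by size of increase among 20847 genes, and 4.99-fold higher on Lpar1-/- fibroblasts (2.32). The other probes gave 4.43 and 3.23 for the label and 3.12 and 1.67 for the fibroblasts, so all 3 probes put both differences past 2-fold. The coculture effect was 1.57-fold in Pla2g3+/+ cells and 17.3-fold under the label. The slide drops out of the difference between these effects, which was 3.46 on the log2 scale and was not tested. Normexp gave 2.66 for the label, 1.69 for the fibroblasts, 2.98 for coculture under the label and 2.70 for the difference between the effects.

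Adamts15, a related proteoglycan-cutting protease, read -1.62 and -1.77 without fibroblasts. It was not well above background in the Pla2g3+/+ coculture (-8.98) or with Lpar1+/+ fibroblasts (-10.59), and read -2.72 in the coculture labelled Pla2g3-/- and -2.45 with Lpar1-/- fibroblasts. Both wild-type cocultures were thus at background, while the other 4 arrays lay between -2.72 and -1.62. The signal was at least 87.1-fold lower in the Pla2g3+/+ coculture, the contrast that chose it. Such a bound sets the bright array against the dimmest signal still well above background on the dim array. Under the Pla2g3-/- label the coculture effect was -0.95, within 2-fold, and the label difference in coculture was at least 40.6-fold upward. On Lpar1-/- against Lpar1+/+ fibroblasts the signal was at least 63.5-fold higher. The low side of both bounds is an array on which the gene was chosen, so neither is independent of the choice. The sizes depend on how dim signals are treated. As log2 differences the bounds are -6.44, 5.34 and 5.99 in the order given, against -3.23, 2.30 and 2.59 with normexp and -7.36, 6.26 and 8.14 with no filter on dim probes. The coculture effect under the label passed 2-fold downward (-1.10) against the other array without fibroblasts, and also after quantile normalization (-1.05).

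Mmp2, gelatinase A, read -4.94 and -4.50 without fibroblasts, -4.12 and -3.22 in coculture, -4.00 with Lpar1+/+ and -2.56 with Lpar1-/- fibroblasts. Its whole range was narrow beside that of the TIMPs, with the coculture on Lpar1-/- fibroblasts at the top. It was 2.72-fold higher on Lpar1-/- fibroblasts and 2.43-fold higher in coculture under the Pla2g3-/- label. The latter value fell within 2-fold with normexp background correction (log2 difference 0.84) and after quantile normalization (0.96).

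Mmp14, the membrane-type collagenase, was not well above background without fibroblasts (-8.21 and -8.15) and read -4.45 and -5.48 in coculture, -4.48 with Lpar1+/+ and -5.16 with Lpar1-/- fibroblasts. Its signal was at least 12.5-fold higher in Pla2g3+/+ coculture and at least 6.21-fold higher under the label. With normexp background correction both values fell within 2-fold (log2 differences 0.93 and 0.51), so these calls depend on how dim signals are treated. In coculture it was 2.04-fold lower under the Pla2g3-/- label, again at the edge of the rule (log2 difference -1.03). It was -0.37 with normexp and -0.95 with scaling on probes detected on all arrays, both within 2-fold, and -1.00, just within it, against the other wild-type coculture.

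Mmp3, stromelysin 1, was likewise not well above background without fibroblasts (-9.98 and -10.08) and read -6.25, -6.17, -6.27 and -4.96 on the cocultures in the order used above. The first 3 of these agree within the yardstick, and the coculture on Lpar1-/- fibroblasts was 2.49-fold above Lpar1+/+. The signal was at least 3.57-fold higher in Pla2g3+/+ coculture and at least 3.85-fold higher under the label. With normexp the 3 log2 differences were 0.42, 0.16 and 0.35, all within 2-fold, and with no filter on dim probes the last pair was 3.73 and 3.91 in place of the bounds of 1.84 and 1.94.

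**Figure D1:**
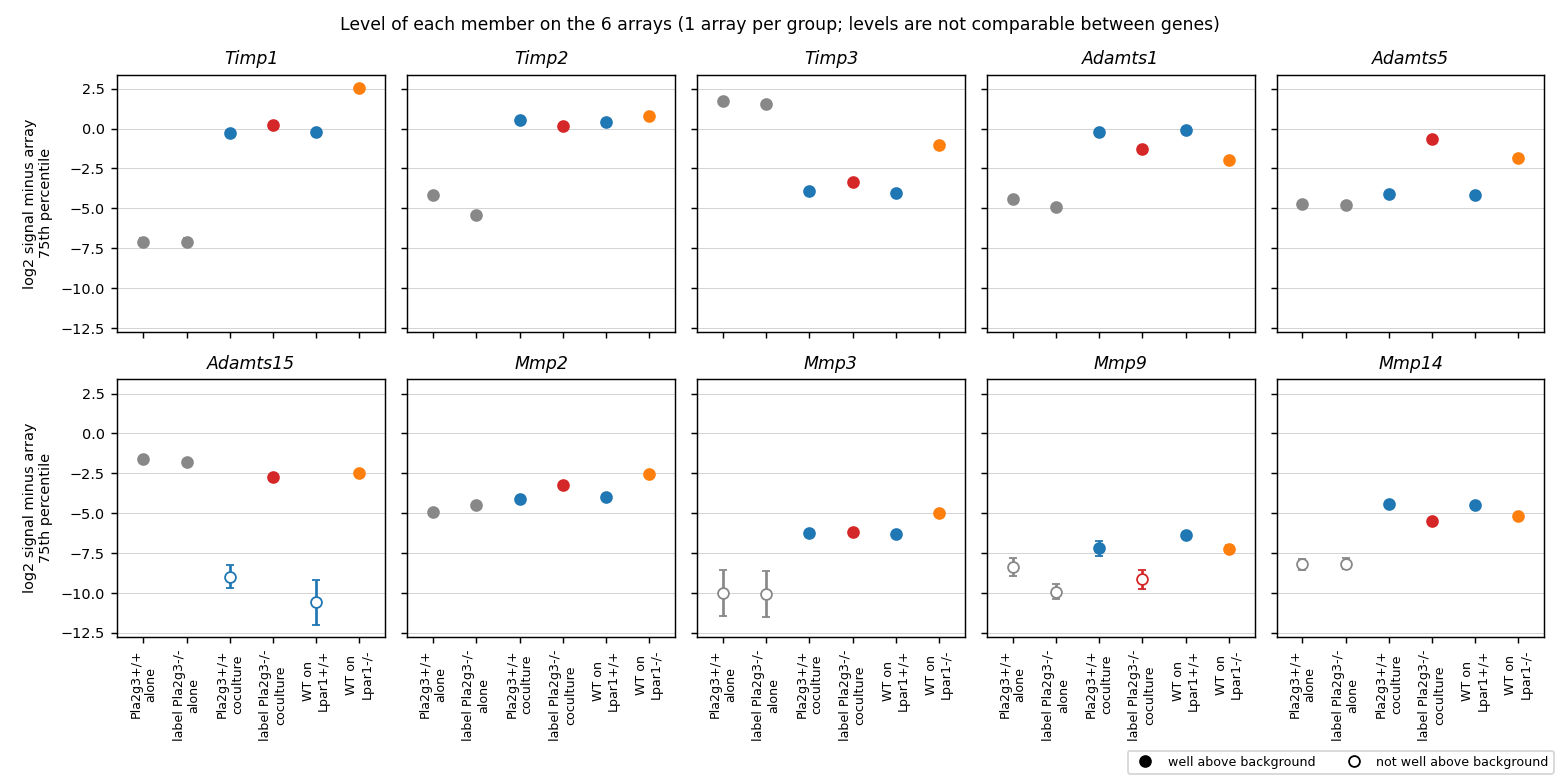
Level of each gene (log2 signal minus the array's 75th percentile, vertical axis) on the 6 arrays (horizontal axis), 1 point per array. Bars are the scanner software's error of the spot or, for Mmp9, the SD over its spots, and open points are not well above background. Timp1 is low without fibroblasts (-7.08 and -7.09) and Timp3 high (1.72 and 1.54), and Adamts15 is at background on both wild-type cocultures (-8.98 and -10.59).

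Mmp9, gelatinase B, is printed on 10 spots, which shows the error of a dim probe. The lowest, median and highest spot levels were -9.29, -8.30 and -7.67 on the Pla2g3+/+ array without fibroblasts and -10.22, -10.10 and -8.70 under the Pla2g3-/- label. They were -8.03, -7.11 and -6.51 in the Pla2g3+/+ coculture, and -10.07, -9.15 and -8.42 over 9 spots in the coculture labelled Pla2g3-/-. With Lpar1+/+ fibroblasts they were -6.59, -6.34 and -6.25, and with Lpar1-/- fibroblasts -7.84, -7.15 and -6.99. The probe was well above background on the 3 cocultures of Pla2g3+/+ or wild-type mast cells, and none of the 9 spots kept was so in the coculture labelled Pla2g3-/-. The spot left out there as an outlier, at -7.42, was well above background. The wild-type cocultures differed by 0.83 for this gene, more than the yardstick's 0.54 and the most of the 9 members compared in that pair. Its differences are less firm for that reason. Adamts15, at background on both arrays, was not compared there. Against the Pla2g3+/+ coculture the label was at least 1.85-fold lower, within the 2-fold rule. Against the other wild-type coculture the label was lower past 2-fold, with a bound of -1.72 on the log2 scale. With no filter on dim probes the difference from the Pla2g3+/+ coculture was -1.94, and with normexp it was 0.00.

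**Figure D2:**
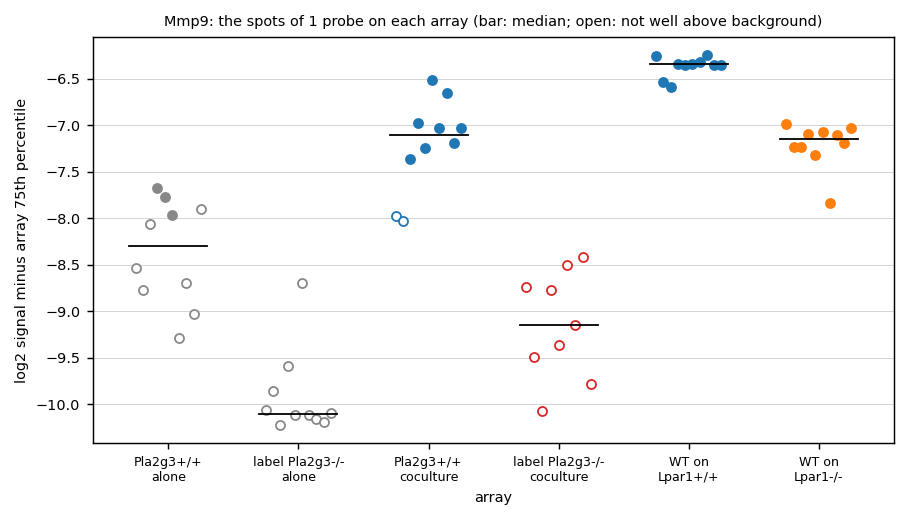
Levels of the 10 spots of the Mmp9 probe (log2 signal minus the array's 75th percentile, vertical axis) on each of the 6 arrays (horizontal axis), leaving out 1 outlier spot of the coculture labelled Pla2g3-/-. Bars are medians and open points are spots not well above background. The spots with Lpar1+/+ fibroblasts lie between -6.59 and -6.25 and those of the array labelled Pla2g3-/- without fibroblasts between -10.22 and -8.70.

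Counted together, 5 of the 10 genes were higher and 2 lower in Pla2g3+/+ coculture. Over all 22615 genes compared, 13.0% were higher and 7.52% lower, and since the members were chosen on this contrast nothing is read from their count. Under the Pla2g3-/- label, 7 of 9 compared members were higher and 1 lower (median log2 difference 2.64), beside 11.4% and 7.3% of 22349 genes (median 0.12). The 7 were Timp1, Timp2, Adamts1, Adamts5, Mmp2, Mmp3 and Mmp14, and the gene that fell was Timp3. Mmp3 and Mmp14 are bounds, compared only because the coculture array was above background, so they could not count as lower. With normexp Mmp2, Mmp3 and Mmp14 fell within 2-fold, which left 4 higher. Of the calls over all genes, 63.4% and 61.0% were upward in these comparisons, and 48.8% and 50.3% after quantile normalization, which moved the median of all genes in the former from 0.13 to 0.00. Between both arrays without fibroblasts, 0 of 7 members were higher and 1, Timp2, was lower by its brighter probe, beside 0.423% and 1.58% of 21752 genes. In the pair of wild-type cocultures none of the 9 compared members passed 2-fold, beside 0.803% of genes higher and 0.166% lower.

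In coculture, the Pla2g3-/- label went with 2 members higher (Adamts5 and Adamts15) and 2 lower (Adamts1 and Mmp14) of 10, beside 9.1% and 10.4% of 22505 genes. On Lpar1-/- fibroblasts 6 of 10 were higher (Timp1, Timp3, Adamts5, Adamts15, Mmp2 and Mmp3) and 1, Adamts1, was lower, beside 11.3% and 8.84% of 24545 genes. These comparisons share no array. Timp3 and Adamts15 were chosen for low levels in wild-type coculture, and both comparisons set another coculture against a wild-type one, so nothing is read from these counts. The coculture on Lpar1-/- fibroblasts exceeded the coculture labelled Pla2g3-/- by 2.27 for Timp1, 2.36 for Timp3 and 1.21 for Mmp3 on the log2 scale, and lay below it for Adamts5 (-1.20). These arrays differ in both the mast cells and the fibroblasts.

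**Figure D3:**
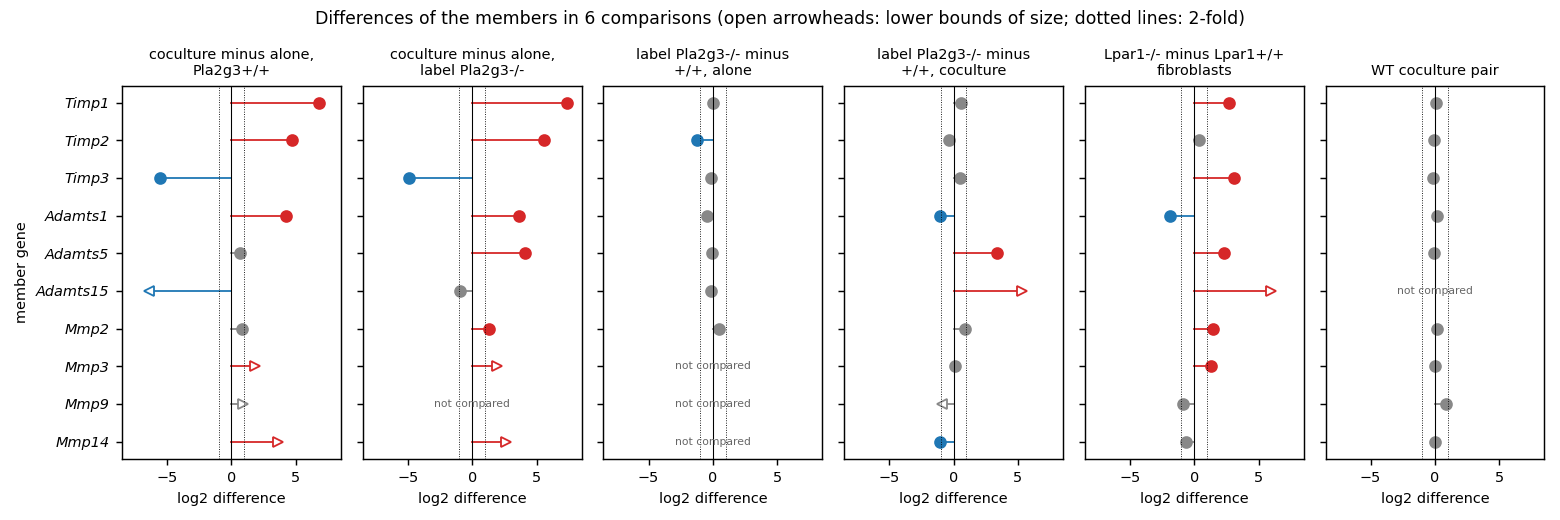
Log2 differences of the 10 genes (horizontal axis, 1 gene per line) in the 6 comparisons. Red is higher and blue lower by at least 2-fold, grey is within it, open arrowheads are bounds, and dotted lines mark 2-fold. Timp3 lies at -5.59 and -4.90 in the coculture panels, Adamts5 at 3.41 and 2.32 in the genotype panels, and every compared gene is within 2-fold in the pair of wild-type cocultures.

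Markers of other cells moved along with these values. In bulk samples fewer cells of a type and less RNA per cell cannot be told apart. In both comparisons of coculture with no fibroblasts, Timp1, Timp2, Adamts1, Mmp3 and Mmp14 were higher and so was the fibroblast list. Between cocultures these genes did not all move with the list's sum. From Lpar1+/+ to Lpar1-/- fibroblasts the sum went from 36.8 to 31.1 while Timp1 was 6.49-fold and Mmp3 2.49-fold higher. Adamts1 was 3.74-fold lower there, and the log2 differences of Mmp14 and Timp2 were -0.68 and 0.38, within 2-fold. The list's median level rose from -1.79 to -1.67, with 4 of 17 compared markers higher (Postn, Lox, Pdgfrb and Fap) and 1 lower (Col6a1). From the Pla2g3+/+ coculture to the label the sum went from 35.5 to 15.3, with 0 of 16 compared markers higher and 8 lower. The log2 differences of Timp1, Timp2 and Mmp3 were 0.55, -0.38 and 0.09 there, and those of Adamts1 and Mmp14 were -1.04 and -1.03. The part of fibroblast RNA in these values was not tested. Timp3 and Adamts15 were high on the arrays without fibroblasts, where 8 of 18 fibroblast markers were well above background. Among the brightest of these were Pdgfrb (-3.97 and -4.63) and Sparc (-4.84 and -4.88), while the median of the fibroblast list was -8.12 and -8.24. The neutrophil list had a median level of 0.00 on the Pla2g3+/+ array without fibroblasts, -3.83 under the Pla2g3-/- label and -3.98 to -1.36 in coculture. Its summed signal was 99.3 on the former array and 51.6 to 66.8 on the other 5, a narrower range, with Csf3r alone at 5.54 to 5.80 on all 6. Between the arrays without fibroblasts Camp was 29.4-fold and Stfa1 28.6-fold lower under the label. The eosinophil list summed to 1.97 on the Pla2g3+/+ array without fibroblasts and 0.113 to 0.499 on the others, with medians of -3.70 and -8.32 to -7.51. From the Pla2g3+/+ array to the array labelled Pla2g3-/- without fibroblasts, where both lists were lower, Timp3 fell by 0.17 and Adamts15 by 0.15, both within the yardstick. Between the Pla2g3+/+ coculture and the label the sum of the macrophage list went from 10.3 to 3.09. Of 11 compared macrophage markers 6 were lower there, 5 within 2-fold and 0 higher. Cd68, the brightest of the list, went from 3.13 to 1.24 and weighs most in its sum. Adamts5 and Adamts15 were higher where the sums of the macrophage and fibroblast lists were lower. Between Lpar1+/+ and Lpar1-/- fibroblasts the macrophage list summed to 9.99 and 1.89, with Cd68 at 3.12 and 0.08. Of its 12 markers 6 were lower, 6 within 2-fold and 0 higher. The neutrophil list summed to 51.6 and 66.8 with medians of -2.63 and -1.36. The megakaryocyte list had a median of 0.37 on the Pla2g3+/+ array without fibroblasts and -1.95 on the other, and -3.28 to -0.71 in coculture, with Pf4 27.7-fold lower under the label without fibroblasts. Apart from these measurements, the part of other cells in the members' values was not tested.

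**Figure D4:**
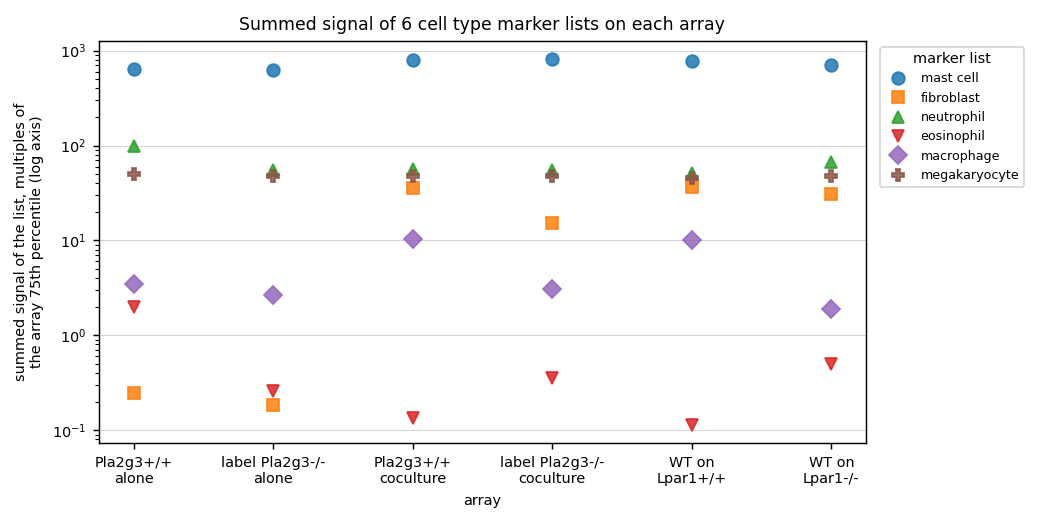
Summed signal of 6 cell type marker lists (vertical log axis, multiples of the array's 75th percentile) on each of the 6 arrays (horizontal axis). The sum of the mast cell markers stays between 621 and 815, while fibroblast markers go from 0.185 and 0.248 without fibroblasts to 15.3 to 36.8 in coculture. Single mast cell markers moved within that sum. Of 12, 4 were higher in Pla2g3+/+ coculture and 3 under the label, with 0 lower. For the label in coculture 3 were lower, and on Lpar1-/- fibroblasts 3, with 0 higher.

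The other genes of the pathway were taken from 7 lists. Over all genes compared, 13.0% were higher and 7.52% lower in Pla2g3+/+ coculture, and 11.4% and 7.3% under the label. For the label in coculture these shares were 9.1% and 10.4%, and on Lpar1-/- fibroblasts 11.3% and 8.84%. The lists are short, and their counts below are to be set beside these shares. Among ADAMTS-like proteins, which resemble ADAMTS enzymes but lack the protease part, 5 of 7 were higher and none lower under the Pla2g3-/- label in coculture (median 2.50, all genes -0.08) and on Lpar1-/- fibroblasts (median 1.85, all genes -0.05). These were Adamtsl1, Adamtsl2, Adamtsl3, Adamtsl4 and Papln, by 4.50-fold to 7.59-fold and 3.30-fold to 10.1-fold. In Pla2g3+/+ coculture 4 of 7 were lower, Adamtsl1 by 14.7-fold, and under the label 3 were higher and 1 lower.

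Among 16 other ADAMTS proteases, 5 of 12 compared were higher and none lower in Pla2g3+/+ coculture, and 4 of 10 higher and 1 lower under the label. Adamts2, a procollagen-processing enzyme, was at least 84.4-fold higher in the former and Adamts14, a related enzyme, 17.9-fold. Under the Pla2g3-/- label in coculture 1 of 12 was higher and 4 lower, and on Lpar1-/- fibroblasts 2 of 13 and 3. Adamts9, which cuts versican, was 12.6-fold and 14.6-fold lower in these comparisons, whereas Adamts5 was higher.

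Among 19 other matrix metalloproteases, 4 of 11 compared were higher and 2 lower in Pla2g3+/+ coculture, and 4 of 10 and none under the label. Mmp11 was 48.8-fold higher and Mmp8, a neutrophil collagenase, 3.29-fold lower in the former, whereas under the label Mmp8 was 2.21-fold higher. Under the label in coculture 2 of 10 were higher and 3 lower, and on Lpar1-/- fibroblasts 3 of 14 and 3 of 14. Mmp27 was 6.67-fold and 5.83-fold higher in these comparisons, and Mmp8 2.54-fold and 2.44-fold. Mmp12, macrophage elastase, was 8.77-fold and 4.51-fold lower, where 6 of 11 and 6 of 12 compared macrophage markers were lower too.

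Of 11 other inhibitors, 2 of 8 compared were higher and 2 lower in Pla2g3+/+ coculture and 2 higher and none lower under the label. Reck, a membrane-anchored metalloprotease inhibitor, was 2.06-fold lower in Pla2g3+/+ coculture. It was 3.05-fold higher under the label in coculture and 6.26-fold higher on Lpar1-/- fibroblasts. Serpine2, a serine protease inhibitor, was 24.6-fold higher in Pla2g3+/+ coculture and 7.67-fold higher in coculture against no fibroblasts under the label. Between genotypes it was 2.83-fold lower under the label in coculture and 5.95-fold lower on Lpar1-/- fibroblasts.

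The ADAM proteases counted 4 of 11 compared higher and 1 lower in Pla2g3+/+ coculture, 4 and none under the label, 2 and 3 for the label in coculture, and 1 and 3 of 12 on Lpar1-/- fibroblasts. Adam23 was 5.22-fold and 11.1-fold lower in the last pair. Among activators of proenzymes the counts were 4 of 9 and none, 3 of 8 and 1, none and 1 of 9, and 1 and 2 of 10. Plaur, the urokinase receptor, was 8.07-fold higher in Pla2g3+/+ coculture and 5.30-fold and 5.94-fold lower in the genotype comparisons. Proteoglycan substrates counted 4 of 9 and 1, 2 and 1 of 9, none and 2 of 9, and none and 1 of 9. Versican (Vcan), a substrate of all 3 ADAMTS members, was 4.90-fold and 5.96-fold lower in the coculture comparisons. Between the arrays without fibroblasts, 6 of 60 compared listed genes passed 2-fold, 1 upward and 5 downward, beside 0.423% and 1.58% of all genes. In the pair of wild-type cocultures 0 of 70 did, beside 0.803% of all genes higher and 0.166% lower.

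**Figure D5:**
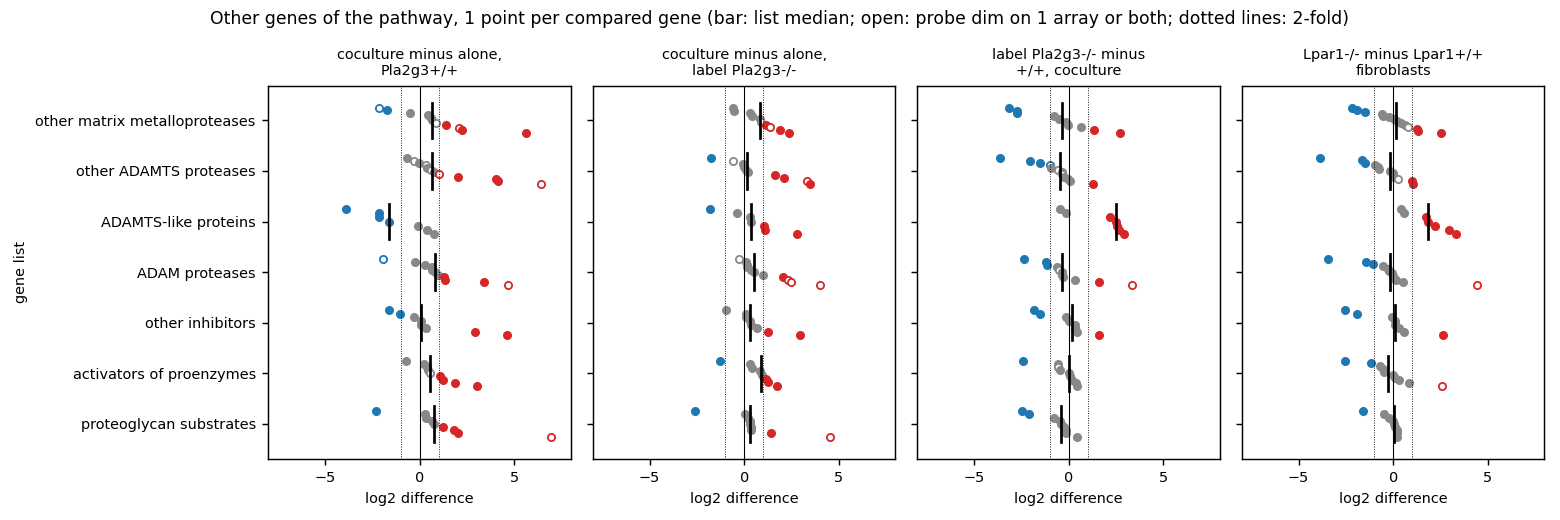
Log2 differences (horizontal axis) of the compared genes of 7 pathway lists, in the 2 coculture and 2 genotype comparisons, 1 point per gene. Red is higher and blue lower by at least 2-fold, black bars are list medians and open points have a probe not well above background on 1 array or both. In the genotype panels 5 of 7 ADAMTS-like proteins lie above 2-fold, with medians of 2.50 and 1.85.

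The profiles most like that of Timp3, by the root mean square difference of centred log2 levels over the 6 arrays among 2932 genes with dim values raised to the array's lowest level well above background, were those of the beta-globin gene Hbb-bt (0.48), the water channel gene Aqp8 (0.57), Itih5 (0.61) and Pigz (0.64), and a transcript named only by its identifier (0.66). Globin genes have near-identical copies, so the Hbb-bt probe may not separate them. Closest to Adamts15 were Ahrr, the repressor of the aryl hydrocarbon receptor (0.37), Nsg2 (0.47), Jaml (0.72), A630038E17Rik (0.75) and Cd24a (0.76). Ahrr read 2.83 and 3.02 without fibroblasts, -3.54 and 2.62 in coculture, -3.37 with Lpar1+/+ and 1.84 with Lpar1-/- fibroblasts, so it was low on the same pair of arrays as Adamts15. Adamts15 and Nsg2 were not well above background on that pair, nor Hbb-bt in the Pla2g3+/+ coculture, so their likeness rests partly on the floors set there. The low wild-type cocultures also chose Timp3 and Adamts15, so these profiles are a description.

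The 250 bases before the start were in the promoter table, from RefSeq on GRCm38.p6, for 6 of the 10 genes: Timp1, Timp2, Timp3, Adamts1, Mmp3 and Mmp14. The last 100 bases before the start of Timp3, Adamts1 and Mmp3 are printed as examples of how the letters differ. They do not sort members by direction. Timp1, Timp2 and Mmp14 were higher in coculture and, like the lower Timp3, hold a GC box and no AP-1 or TATA letters. Whether the letters relate to the coculture differences was not tested. Capitals mark AP-1 (TGANTCA), GC box (GGGCGG) and TATA box (TATAAA) letters, searched on both strands.
Timp3, chr10:86300312-86300411, plus strand: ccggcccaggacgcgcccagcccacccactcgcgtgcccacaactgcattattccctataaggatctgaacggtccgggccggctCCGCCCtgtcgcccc
Adamts1, chr16:85803114-85803213, minus strand: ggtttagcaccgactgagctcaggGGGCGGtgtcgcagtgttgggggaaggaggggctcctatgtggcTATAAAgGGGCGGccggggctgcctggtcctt
Mmp3, chr9:7445722-7445821, plus strand: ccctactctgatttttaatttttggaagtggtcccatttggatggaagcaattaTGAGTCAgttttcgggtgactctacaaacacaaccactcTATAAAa
Of 32851 promoters of this length, 6.75% hold the AP-1 letters, 32.7% a GC box and 12.4% a TATA box. Mmp3 was the one member among the 6 with AP-1 letters, which begin 46 bases before the start, and it holds no GC box. Each of the other 5 holds at least 1 GC box. Its GC content was 37.6%, against 54.4% to 68.0% in the others and a median of 52.4% over all promoters. A match is a description of letters and not a site of binding.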

How the data were processed

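Per the file headers, the authors read the intensity of each spot with version 12.1.1.1 of Agilent Feature Extraction, with background subtraction and a surrogate for dim spots, so low values rest partly on that surrogate. The deposited table gives a linear signal, which was that intensity over 1 constant per array, with column medians of 0.0357, 0.0338, 0.0439, 0.0448, 0.0428 and 0.0483 over all its rows. This settled its scale and direction, and genes were not centred.

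Levels are the log2 processed intensity of a spot less that of the 75th percentile over 43020 noncontrol spots of the array (1268.3, 1230.4, 1468.7, 1243.0, 1520.0 and 1458.6). Outlier spots (84 to 115 per array) were dropped, none was saturated, and the share well above background was 70.7% to 80.4%. Spots of a probe were averaged, and the probe with the highest mean stood for a gene. Accessions named 33002 spots through a GRCm38.p6 gene table used for names only, symbols 3072 and synonyms 16, and 6930 kept the file's name. A gene was dim where each of its probes was not well above background, and was compared where at least 1 array of the pair was above. Where the other was not, the difference is a bound against the higher of that array's lowest signal well above background and the dim probe's own. The scanner error is the software's model for a spot (10% of signal or more) and leaves out the culture.

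Members, lists and settings were chosen with earlier results of these data known. Named genes are the members, the 5 nearest profiles of Timp3 and Adamts15 and, of each list, up to 2 genes per direction past 2-fold, with all 5 ADAMTS-like genes and the targeted and marker genes. The lists' calls are descriptions of 1 array per group. The comparison code was tested on simulated data. Alternatives covered background correction (normexp in limma 3.58.1, R 4.3.3), scaling, probe choice, filters, outliers, fold thresholds and array swaps. Computation used Python 3.11.15, numpy 2.4.6 and pandas 2.3.3.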

Additional observations from a re-analysis of the deposited data

How the results depend on the processing

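Of 565 member values recomputed under the alternatives other than the fold thresholds, 546 kept their call, 19 changed it and 0 reversed. Only 274 of the 565 concerned differences called higher or lower, and 261 of these kept their call. In size, 76 values moved by more than the yardstick's SD of 0.26. An alternative with the deposited values uses the same intensities over 1 constant per array, so little could change there. Of the counts of members, those that moved by over 1.5 times follow. With normexp the members higher in Pla2g3+/+ coculture numbered 3 and under the Pla2g3-/- label 4, and those lower for the label were 0 without fibroblasts and 1 in coculture. Quantile normalization, and the other array without fibroblasts, each gave 2 lower for coculture under the label. Scaling on probes detected on all arrays gave 0 lower for the label in coculture, and the mean of probes 0 lower without fibroblasts. Requiring both arrays above background left 3 higher and 1 lower in Pla2g3+/+ coculture and 1 higher for the label in coculture. With no filter on dim probes, 2 were lower for the label without fibroblasts and 1 in the wild-type pair. At 1.5-fold, 8 were higher in Pla2g3+/+ coculture, 2 lower in coculture under the label, 3 lower on Lpar1-/- fibroblasts and 1 higher in the wild-type pair. At 4-fold, none (0) were lower for the label without fibroblasts, for the label in coculture or on Lpar1-/- fibroblasts. Taking the background call from the standing probe alone, an alternative chosen after seeing the values of listed genes, changed no member's call and left 22606 genes compared in Pla2g3+/+ coculture in place of 22615. No paired analysis was possible because each group has 1 array. Signals near background limit Mmp3, Mmp9, Mmp14 and the dim side of Adamts15.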
